A study of Homo sapiens with 9 samples.

Results

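Small genomic intervals that lie wholly inside a larger listed interval were followed in MDA-MB-231, an established human cell line of triple-negative breast cancer. A nested interval was kept when it was autosomal, spanned less than 5000 bases (end minus start), lay inside another listed interval of 20000 bases or more, called its host here, and had a value above 0 in at least 3 of the 9 libraries. A region of clustered genes on chromosome 5 was left out, which removed 2 nested intervals. The geometry was met by 10874 intervals, and 1718 of these also had a value above 0 in 3 or more libraries. They lay in 1473 hosts and made up 1718 of the 55527 intervals of the series whose coordinates are not shared with another row. Where an interval had several hosts, the smallest was used.

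RNA came from 3 groups of 3 libraries each. All cells had been infected with a lentivirus made in 293FT cells and selected with puromycin, the controls included. The virus carried shScr, a scrambled short hairpin, or a hairpin aimed at CTDP1, shCTDP1-#1 in the second group and shCTDP1-#2 in the third. Separate cultures are not stated for the libraries of a group, so a p-value here reflects only how these libraries spread, which may be technical. Values are TPM, transcript abundance scaled to 1 fixed total per library, so the depth of a library is not known and no counting interval can be given. The level of CTDP1 in these libraries was not analysed here.

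The product of CTDP1 is a phosphatase that acts on the C-terminal tail of the large subunit of RNA polymerase II and helps return the polymerase to a form that can start transcription again. Many small genes, among them processed pseudogenes, small RNA genes and antisense transcripts, sit in the introns of larger genes. Unspliced RNA of the larger gene holds their sequence too, so reads of it can be counted for the small gene, and a library without strand information cannot tell the directions apart. The TruSeq RNA v2 kit named in the labels selects polyadenylated RNA and does not mark the strand. The comparison asks whether a nested interval changed as its host did.

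The files give positions on hg19 and no gene names, exons or strands, so intervals are named by position and nothing is said of whether a nested interval lies in an exon or an intron of its host. No hg19 sequence was at hand, and no sequence is printed. The labelled cell line was likewise not checked against marker genes.

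The nested intervals were short and their hosts long. The span of the nested intervals ran from 140 to 4997 bases with a median of 1132, and the span of the hosts from 20087 to 2194860 bases with a median of 74105. Of the 1718, 1558 lay inside 1 host only, and 160 inside 2 or more, at most 4. Of the hosts, 1281 held 1 nested interval and 192 held more, at most 6, so nested intervals of a host are not independent of each other. By coordinate, 628 were centred in the opening 3rd of the host, 463 in the middle 3rd and 627 in the closing 3rd. Only 24 shared an edge with the host, 179 lay within 1000 bases of an edge, and 72 overlapped another nested interval of the set.

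Some values lay close to the limits of the rule. The longest interval inside the span limit was chr10:44139307-44144304 with 4997 bases, at 23.1 TPM on average. The shortest detected one outside it was chr7:6071007-6076017 with 5010 bases, at 0.331 TPM. The shortest host spanned 20087 bases, and a container of 19883 bases, chr6:43477440-43497323, just missed the limit. In the number of libraries above 0, 265 nested intervals had exactly 3 and 419 had 2, 792 had 1 and 7945 had none. A value above 0 in all 9 libraries was seen in 636.

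Detection of small nested intervals was rare, and it was more frequent in every knockdown library than in any shScr library. Before the condition on detection, 1386, 1299 and 1263 of the 10874 nested intervals were above 0 TPM in the shScr libraries, 1475, 1427 and 1542 in the shCTDP1-#1 libraries, and 1517, 1464 and 1581 in the shCTDP1-#2 libraries. These are shares of 12.07% ± 0.569 (mean ± SD, n = 3), 13.63% ± 0.551 and 14.0% ± 0.5 in the same order. The groups did not overlap between shScr and either hairpin, while the hairpins overlapped. The mean number was 1.13 times that of shScr with shCTDP1-#1 and 1.16 times with shCTDP1-#2.

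The same shift was seen outside the hosts. Small autosomal intervals outside any host, 16472 in all, were above 0 TPM in 17.13% ± 0.321 with shScr, 20.37% ± 0.603 with shCTDP1-#1 and 20.27% ± 0.577 with shCTDP1-#2, and their number was 1.19 and 1.18 times that of shScr. Over all 50571 autosomal intervals the ratios were 1.12 and 1.11. The ratio of the nested intervals thus lay between that of all autosomal intervals and that of small intervals elsewhere. Sequencing depth, which TPM does not keep, sets how many intervals are above 0, and its part in these numbers was not tested.

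**Figure D1:**
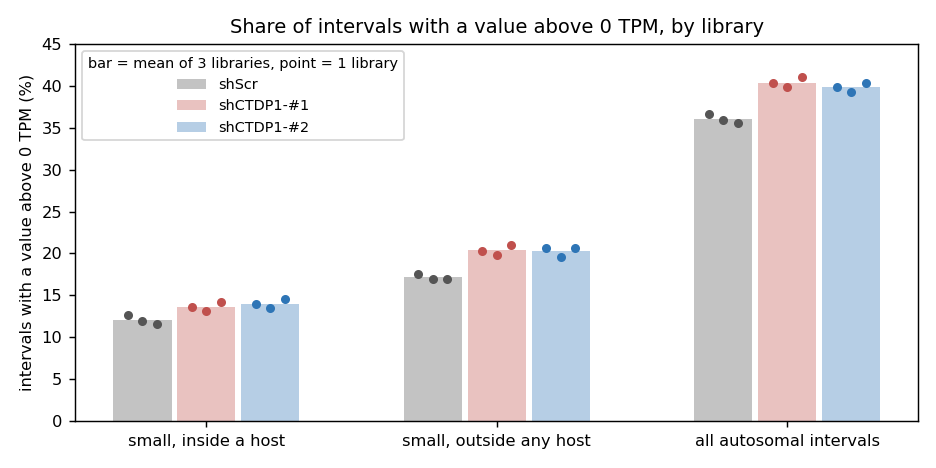
Share of intervals with a value above 0 TPM (y axis, percent) for small nested intervals, small intervals outside any host and all autosomal intervals (x axis). Bars are means of 3 libraries and points are libraries; in each class the knockdown libraries lie above the shScr libraries, for the nested class between 13.1% and 14.5% against 11.6% to 12.7%.

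Detection rose with the level of the host. In the shScr libraries, 5.86% ± 0.102 (SD, n = 3) of nested intervals were above 0 TPM where the host was listed at 0. That share was 10.5% ± 0.898 in hosts above 0 and under 1 TPM, 14.6% ± 1.28 in hosts from 1 to under 10 TPM, 15.5% ± 0.767 in hosts from 10 to under 100 TPM and 18.2% ± 1.04 in hosts of 100 TPM or more. Most nested intervals were thus at 0 even in the most abundant hosts. With the hairpins the share in hosts listed at 0 was 7.37% ± 0.434 and 7.53% ± 0.242, and in hosts of 100 TPM or more 21.3% ± 1.27 and 21.0% ± 1.07. In hosts above 0 and under 1 TPM the groups lay close together, at 10.5% with shScr and 10.7% with each hairpin. Hosts were classed by their level in each library, so a class does not hold the same intervals in every group. Hosts listed at 0 held 2833 to 2921 nested intervals in the shScr libraries, 2169 to 2242 with shCTDP1-#1 and 2279 to 2389 with shCTDP1-#2.

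Detection rose with span as well. In the shScr libraries, intervals under 200 bases in hosts of 100 TPM or more were above 0 in 0.942% ± 0.333, those of 200 to under 1000 bases in 20.9% ± 1.08 and those of 1000 to under 5000 bases in 36.5% ± 3.0. For the longest of these classes the share was 42.9% ± 3.25 with shCTDP1-#1 and 42.1% ± 3.32 with shCTDP1-#2. Where the host was listed at 0, the same class stood at 11.7% ± 0.324, 14.4% ± 0.713 and 15.1% ± 0.459 in the order shScr, shCTDP1-#1, shCTDP1-#2. In this class of span the knockdown libraries were thus higher at both ends of the range of host levels, though not over the same intervals. Intervals under 200 bases in hosts of 100 TPM or more stood at 0.547% and 0.728% with the hairpins. That was below the mean of shScr, with overlap between the libraries.

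**Figure D2:**
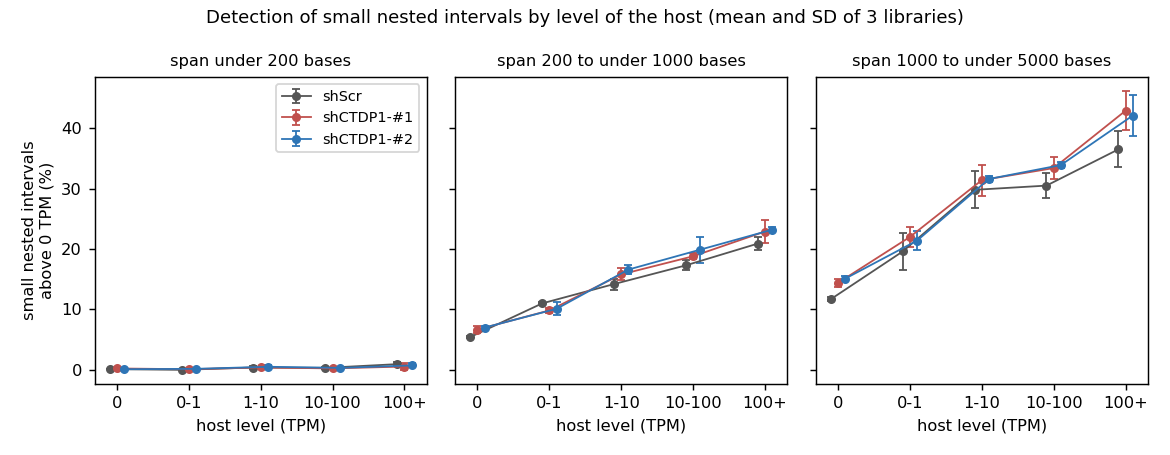
Share of small nested intervals above 0 TPM (y axis, percent) against the level of the host in the same library (x axis, TPM), in 3 classes of span. Points are means and bars SDs of 3 libraries per group; intervals under 200 bases stay near 0 at every host level, while those of 1000 bases or more rise from 11.7% to 36.5% in the shScr libraries.

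Most detected nested intervals were at low level. The median of their mean TPM over the 9 libraries was 0.363, 1205 of the 1718 were under 1 TPM, 217 were at 5 TPM or more and 32 at 100 TPM or more. The median host stood at 11.5 TPM. Together the nested intervals took 2.12% ± 0.0404 of the TPM of an shScr library, 2.16% ± 0.0153 with shCTDP1-#1 and 2.02% ± 0.0252 with shCTDP1-#2. The 5 most abundant held between 46.5% and 50.1% of that sum in each library. Nested intervals at 1 TPM or more numbered 467, 445 and 444 with shScr, 503, 518 and 522 with shCTDP1-#1, and 566, 535 and 562 with shCTDP1-#2, with no overlap between any 2 of the groups. The mean number was 1.14 and 1.23 times that of shScr with the hairpins. For small intervals outside any host it was 1.16 and 1.23 times, and for all autosomal intervals 1.05 and 1.07 times. In both of these sets too, no 2 of the groups overlapped. The nested intervals were picked by detection in these same libraries, so their ratio is a description.

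Changes were tested where an interval had at least 1 TPM in at least 3 libraries. Of the 1718 nested intervals, 605 passed, and the remaining 1113 had a median of 0.172 TPM. Among the 605, 94 were under 1 TPM in all 3 shScr libraries and 4 were under 1 TPM in all 6 knockdown libraries. Those passed only through the libraries where they were high, so the counts below describe the tested intervals and support nothing on their own.

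With shCTDP1-#1, 148 of the 605 tested nested intervals were higher than with shScr and 91 lower (limma on log2(TPM + 1), Benjamini-Hochberg adjusted p under 0.05). This is 24.5% and 15.0%, against 35.4% and 27.7% of all 15011 tested intervals, or 39.5% against 63.1% in either direction. With shCTDP1-#2, 171 were higher and 78 lower, 28.3% and 12.9%, against 39.5% and 24.6% of all tested, or 41.2% against 64.0% in either direction. In bulk RNA, a change in every cell and a change in the share of cells that hold the RNA cannot be told apart. Between the hairpins, 99 were higher and 60 lower with shCTDP1-#2 than with shCTDP1-#1, 16.4% and 9.92%, against 30.2% and 20.0% of all tested, or 26.3% against 50.2% in either direction. After median-of-ratios scaling these last 2 counts were 81 and 75. That scaling gave 133 higher and 105 lower with shCTDP1-#1, and 144 and 99 with shCTDP1-#2. The excess of higher calls thus shrank in all comparisons, and the shares of all tested intervals are not given for it. Before that scaling, fewer nested intervals than intervals at large passed the test in each comparison. Their values were also less precise: the median SE of a log2 change was 0.213, against 0.095 over all tested intervals.

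Changes at or beyond 1 on the log2 scale were seen in 50 of the called nested intervals that were higher and 26 that were lower with shCTDP1-#1, and in 71 and 15 with shCTDP1-#2. The corresponding shares of all tested intervals were 7.22% and 4.2% with shCTDP1-#1, and 8.44% and 2.31% with shCTDP1-#2. The median log2 change of the nested intervals was 0.16 with shCTDP1-#1 and 0.20 with shCTDP1-#2, beside 0.07 and 0.13 over all tested intervals. For the 1742 tested small intervals outside any host the medians were 0.19 and 0.25. After median-of-ratios scaling, which moves the median of all intervals to 0, the medians of the nested intervals were 0.10 and 0.09.

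The change of a nested interval followed that of its host only weakly. In 474 pairs, in 433 hosts, both intervals were tested. Across these pairs, Pearson's r of the log2 change of the nested interval with that of its host was 0.096 with shCTDP1-#1 and 0.10 with shCTDP1-#2, and Spearman's rho was 0.148 and 0.161. The changes had the same sign in 60.8% and 59.9% of pairs. These are correlations across pairs that share their libraries, and partly their hosts, so they are descriptions with no p-value. The median nested level in them was 2.53 TPM. In the 121 pairs with both means at 5 TPM or more, the median nested level was 12.1 TPM. There r was 0.086 with shCTDP1-#1 and 0.083 with shCTDP1-#2, and rho was 0.22 and 0.255. A weak r of this kind is no finding.

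For scale, each nested interval was also set beside the nearest tested interval of 20000 bases or more that overlapped neither it nor its host. With that neighbour r was -0.006 with shCTDP1-#1 and 0.050 with shCTDP1-#2, and the sign was the same in 54.0% and 54.6% of pairs. Between the hairpins, a comparison that does not use shScr, r was 0.210 with the host and 0.110 with the neighbour, and the sign was the same in 58.0% and 53.4%. Over all pairs the host value was the higher in each of the 3 comparisons, by a margin that was not tested. It was not the higher in every set of pairs. With shCTDP1-#2, r was 0.060 with the host and 0.061 with the neighbour in the 383 pairs at least 1000 bases inside, and 0.083 and 0.086 in the 121 pairs at 5 TPM or more. In the 86 pairs with the nested interval above its host, r with the host and the neighbour was -0.042 and 0.041 with shCTDP1-#1, and -0.040 and 0.091 with shCTDP1-#2. With shCTDP1-#2, Spearman's rho with host and neighbour was 0.129 and 0.083 in those 383 pairs and 0.255 and 0.076 in those 121. In those 86 pairs it was 0.104 and 0.104 with shCTDP1-#1, and 0.165 and 0.099 with shCTDP1-#2. In the 178 pairs with the nested interval under 10% of the host, rho with shCTDP1-#2 was 0.01 and 0.083.

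Nested intervals near an edge of the host lay closer to it in their change than those deep inside. In the 91 pairs within 1000 bases of a host edge, r was 0.360 with shCTDP1-#1, 0.272 with shCTDP1-#2 and 0.332 between the hairpins. In the 383 pairs at least 1000 bases inside, r was 0.030, 0.060 and 0.176. With shCTDP1-#1, both intervals were called in 19 of the pairs near an edge, and 17 of those had the same direction. Deep inside, both were called in 95, of which 49 had the same direction. With shCTDP1-#2 the counts were 18 of 23 near an edge and 65 of 104 deep inside, and between the hairpins 13 of 13 and 37 of 56. The difference in r between the edge and the inside was not tested, and the set near an edge was chosen after seeing the data. These classes also differ in the level of the nested interval, with medians of 3.75 TPM near an edge and 2.32 TPM inside.

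The pairs were also split by the level of the nested interval relative to its host. The median ratio of mean TPM, nested over host, was 0.166 in the 474 pairs, and 86 nested intervals were above their host. For the 178 pairs in which the nested interval was under 10% of the host, r was 0.024 with shCTDP1-#1 and 0.018 with shCTDP1-#2. For the 210 pairs from 10% to 100% it was 0.224 with each hairpin, and for the 86 above the host -0.042 and -0.040. Between the hairpins the classes lay closer together, at 0.202, 0.207 and 0.245. These classes also differ in the level of the nested interval, with medians of 1.34, 3.41 and 15.6 TPM.

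**Figure D3:**
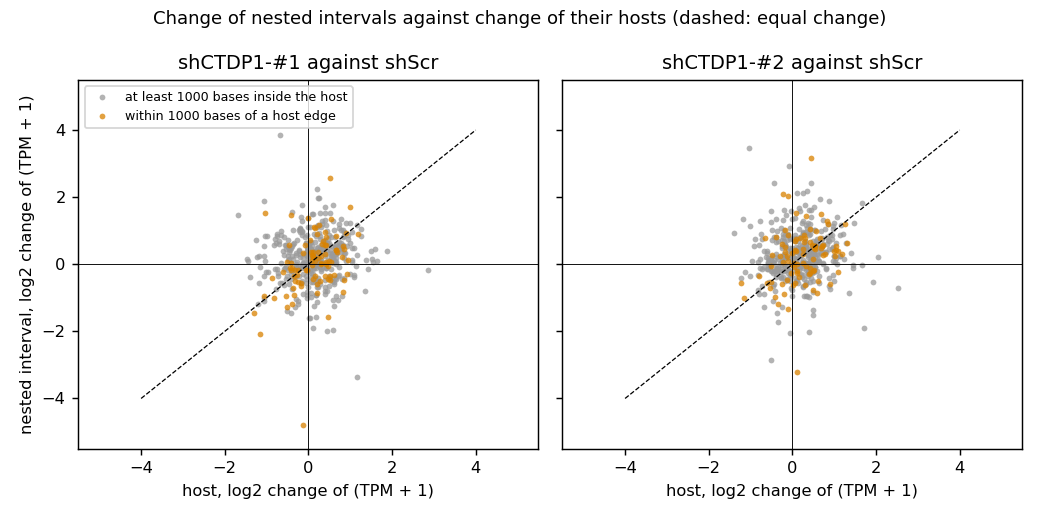
Log2 change of (TPM + 1) of each nested interval (y axis) against that of its host (x axis) with shCTDP1-#1 (left) and shCTDP1-#2 (right) against shScr, in 474 pairs; orange points lie within 1000 bases of a host edge, grey points deeper inside, and the dashed line marks equal change. The cloud is nearly round, with r of 0.096 and 0.10.

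Grouped by the call of the host, nested intervals were called in both directions in every class. With shCTDP1-#1, the host was higher in 187 pairs, and the nested interval was higher in 46 of them and lower in 24. The host was lower in 111 pairs, and the nested interval was higher in 24 and lower in 20. The host was not called in 176 pairs, and the nested interval was higher in 45 and lower in 21. In shares, a nested interval was higher in 24.6%, 21.6% and 25.6% of pairs whose host was higher, lower or not called, and lower in 12.8%, 18.0% and 11.9%.

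With shCTDP1-#2, nested intervals were higher in 67 and lower in 18 of the 199 pairs whose host was higher. They were higher in 26 and lower in 16 of the 109 whose host was lower, and higher in 43 and lower in 17 of the 166 whose host was not called. The share that was higher was 33.7% in hosts that were higher, 23.9% in hosts that were lower and 25.9% in hosts not called. Between the hairpins, nested intervals were higher with shCTDP1-#2 in 24.5% of the 147 pairs with a higher host and in 7.84% of the 102 pairs with a lower host. They were lower in 7.48% and 13.7%. The differences between these classes were not tested.

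**Figure D4:**
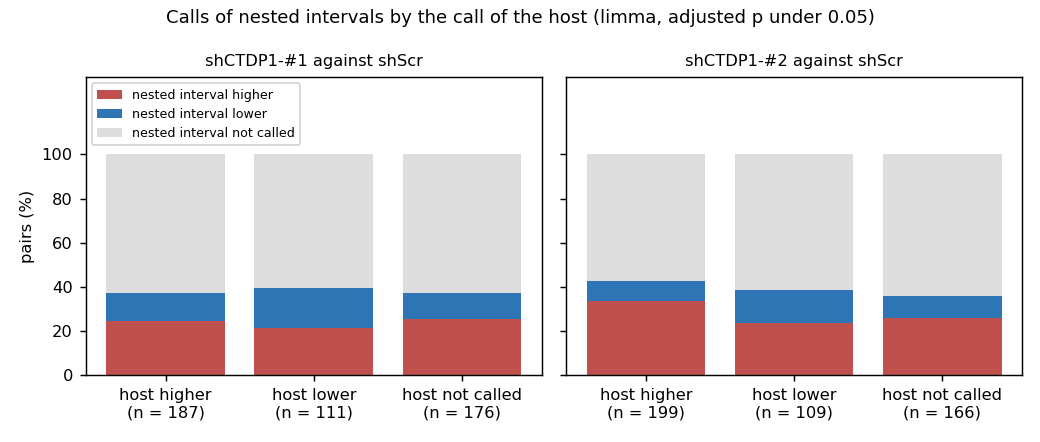
Share of pairs (y axis, percent) in which the nested interval was higher, lower or not called, by the call of its host (x axis), for each hairpin against shScr. Where the host was lower, 21.6% (shCTDP1-#1) and 23.9% (shCTDP1-#2) of nested intervals were higher.

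Whether a nested interval changed differently from its host was tested in the per-library difference of log2(TPM + 1), nested minus host, fitted with limma over all 1049 pairs of a tested interval inside another tested one. With shCTDP1-#1, 61 of the 474 pairs were shifted towards the nested interval and 63 towards the host, 12.9% and 13.3%, against 15.0% and 14.6% of the 1049, or 26.2% against 29.6% in either direction. With shCTDP1-#2 the counts were 76 and 48, 16.0% and 10.1%, against 15.6% and 13.7%, or 26.2% against 29.4% in either direction. Between the hairpins they were 33 and 21, 6.96% and 4.43%, against 7.34% and 7.34%, or 11.4% against 14.7% in either direction. Without shCTDP1-#2 replicate 1 or 2 the count of 33 was 20 or 21, and without shCTDP1-#1 replicate 1 the count of 21 was 13. The 1049 pairs include the 474, which draws these shares together. In either direction the share of the 474 was the lower in each comparison, by a margin that was not tested. The median difference was 0.04 with shCTDP1-#1 and 0.06 with shCTDP1-#2. Their median SE was 0.278, against 0.246 over the 1049. The other 350 pairs with each hairpin did not pass, which does not show that both intervals moved alike.

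The pairs described next had both intervals at 5 TPM or more on average over the 9 libraries. Several nested intervals reached that average only through the groups where they were high. Those on chromosomes 5, 11 and 14 that rose, and chr17:44270942-44274089, were under 5 TPM on average with shScr. Those that fell on chromosomes 3 and 19 (chr3:183977001-183979251 and chr19:53153690-53156537) were under it with both hairpins. Being called was also part of how the pairs were chosen, so their p-values describe them and support nothing further. They were ranked first by the smaller of the differences with the hairpins, among those called in 1 direction with each hairpin and with all 6 knockdown libraries on 1 side of the shScr libraries, so that agreement between the hairpins is set by the choice. Both comparisons also share the shScr libraries.

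The widest shift towards the nested interval was on chromosome 5. The interval chr5:148349903-148350216, of 313 bases and 46701 bases from the nearer edge of its host, was at 0.69, 0 and 1.58 TPM with shScr, 24.7, 19.9 and 23.4 TPM with shCTDP1-#1 and 14.6, 19.3 and 17.2 TPM with shCTDP1-#2. Its host chr5:148303202-148442726 was at 12.3, 14.2 and 12.4 TPM with shScr, 9.22, 6.94 and 7.19 TPM with shCTDP1-#1 and 5.13, 6.22 and 6.09 TPM with shCTDP1-#2. The nested interval was under 2 TPM in the shScr libraries and above its host in all knockdown libraries, while the host moved the other way, and neither overlapped between shScr and the hairpins. Its log2 change was 3.85 (SE 0.28) with shCTDP1-#1 and 3.45 (SE 0.28) with shCTDP1-#2. The nested interval met the 1 TPM limit only with knockdown libraries counted, so no test is given for it or for the difference. The host changed by -0.68 and -1.04 (limma adjusted p = 0.00056 and 2.6e-05). The difference, nested minus host, was 4.53 (SE 0.34) with the first hairpin and 4.49 (SE 0.34) with the second.

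On chromosome 14 a nested interval rose within the most abundant of the hosts. The interval chr14:50044110-50044512, of 402 bases and 720 bases from an edge, was at 2.71, 2.19 and 1.03 TPM with shScr, 17.9, 15.6 and 15.3 TPM with shCTDP1-#1 and 12.8, 9.85 and 11.8 TPM with shCTDP1-#2. Its host chr14:50043390-50065408 was at 3263, 4199 and 4011 TPM with shScr, 5716, 5568 and 5149 TPM with shCTDP1-#1 and 3071, 3375 and 3383 TPM with shCTDP1-#2. The nested interval rose with both hairpins without overlap, whereas the host was highest with shCTDP1-#1 and, with shCTDP1-#2, overlapped shScr. The differences, nested minus host, were 2.05 (SE 0.29, limma adjusted p = 0.0015) with the first hairpin and 2.32 (SE 0.29, adjusted p = 0.00084) with the second. At well under 1% of the host level in every library, this nested interval was called higher with shCTDP1-#2 while the host was called lower by 0.22 on the log2 scale (limma adjusted p = 0.047).

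The next in this direction was chr17:44270942-44274089 on chromosome 17, of 3147 bases. It was at 2.29, 0.26 and 1.41 TPM with shScr, 9.53, 8.15 and 9.94 TPM with shCTDP1-#1 and 8.63, 9.05 and 8.46 TPM with shCTDP1-#2. The host chr17:44107282-44302733 was at 19.6, 18.8 and 18.0 TPM with shScr, 22.6, 22.5 and 20.0 TPM with shCTDP1-#1 and 25.1, 24.4 and 23.3 TPM with shCTDP1-#2. The nested interval rose from a low and uneven shScr level, and the host by far less. The differences were 2.05 (SE 0.31) with the first hairpin and 1.82 (SE 0.31) with the second. This nested interval too met the 1 TPM limit only with knockdown libraries counted, so no test is given.

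The widest shift towards the host was on chromosome 1, where the host rose and the nested interval did not. The host chr1:109512836-109584850 was at 10.6, 9.95 and 9.42 TPM with shScr, 29.1, 31.4 and 32.0 TPM with shCTDP1-#1 and 28.9, 25.6 and 26.9 TPM with shCTDP1-#2. The nested interval chr1:109534878-109535489, of 611 bases, was at 6.24, 7.38 and 8.54 TPM with shScr, 8.14, 6.27 and 9.05 TPM with shCTDP1-#1 and 3.97, 2.70 and 4.15 TPM with shCTDP1-#2. Host levels with the hairpins were all well above shScr, by 1.53 and 1.36 on the log2 scale (limma adjusted p = 3.8e-08 and 9.5e-08). The nested interval overlapped shScr with shCTDP1-#1, with a change of 0.07 (SE 0.17, limma adjusted p = 0.74), and fell with shCTDP1-#2, by 0.87 on the log2 scale (adjusted p = 0.0011). The differences were -1.46 (SE 0.20, limma adjusted p = 0.0013) with the first hairpin and -2.23 (SE 0.20, adjusted p = 0.0002) with the second.

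A pair on chromosome 19 moved in opposite directions with both hairpins. The nested interval chr19:53153690-53156537, of 2847 bases, was at 7.78, 7.70 and 6.29 TPM with shScr, 4.04, 3.68 and 5.27 TPM with shCTDP1-#1 and 5.25, 4.77 and 4.58 TPM with shCTDP1-#2. The host chr19:53097313-53193749 was at 22.0, 17.8 and 17.9 TPM with shScr, 30.2, 26.7 and 25.2 TPM with shCTDP1-#1 and 41.9, 35.1 and 40.0 TPM with shCTDP1-#2. All knockdown libraries were below shScr in the nested interval and above it in the host. The changes of the nested interval were -0.64 and -0.49 (limma adjusted p = 0.0017 and 0.0079), those of the host 0.49 and 0.98 (adjusted p = 0.0016 and 1.1e-05). The differences were -1.13 and -1.47, each with an SE of 0.18 (limma adjusted p = 0.0024 and 0.00074).

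On chromosome 3 the nested interval chr3:183977001-183979251, of 2250 bases, fell with both hairpins. It was at 9.73, 11.3 and 9.29 TPM with shScr, 3.13, 5.09 and 4.71 TPM with shCTDP1-#1 and 2.90, 4.17 and 3.65 TPM with shCTDP1-#2. The host chr3:183967438-184010819 was at 12.1, 13.2 and 14.5 TPM with shScr, 23.9, 20.0 and 23.4 TPM with shCTDP1-#1 and 11.6, 11.2 and 10.3 TPM with shCTDP1-#2. The host rose with shCTDP1-#1 and fell slightly with shCTDP1-#2, so the difference was -1.79 (SE 0.23, limma adjusted p = 0.001) with the former and -1.04 (SE 0.23, adjusted p = 0.012) with the latter.

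Further pairs in which nested interval and host were each called in opposite directions with both hairpins were found on chromosomes 11 and 20. The nested interval chr11:19732480-19734165 lay 360209 bases from an edge of a host of 770873 bases, chr11:19372271-20143144. It was at 3.58, 3.52 and 3.52 TPM with shScr, 8.22, 8.60 and 7.46 TPM with shCTDP1-#1 and 10.1, 8.10 and 8.99 TPM with shCTDP1-#2, and the host at 16.9, 17.1 and 12.5 TPM with shScr, 7.69, 9.58 and 11.1 TPM with shCTDP1-#1 and 6.90, 6.68 and 7.71 TPM with shCTDP1-#2. The nested interval was tightly grouped in the shScr libraries and rose, while the host fell, with differences of 1.66 and 2.16 (SE 0.20, limma adjusted p = 0.00066 and 0.0002).

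On chromosome 20 the nested interval chr20:30135307-30135852, of 545 bases, was at 39.5, 33.9 and 31.2 TPM with shScr, 21.8, 21.9 and 19.7 TPM with shCTDP1-#1 and 23.9, 27.0 and 25.2 TPM with shCTDP1-#2. Its host chr20:30102231-30157370 was at 446, 446 and 443 TPM with shScr, 480.3, 527 and 531 TPM with shCTDP1-#1 and 545, 542 and 533 TPM with shCTDP1-#2. The nested interval fell and the much more abundant host rose a little, neither with overlap between shScr and the hairpins. The differences were -0.90 and -0.72 (SE 0.16, limma adjusted p = 0.0037 and 0.011).

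**Figure D5:**
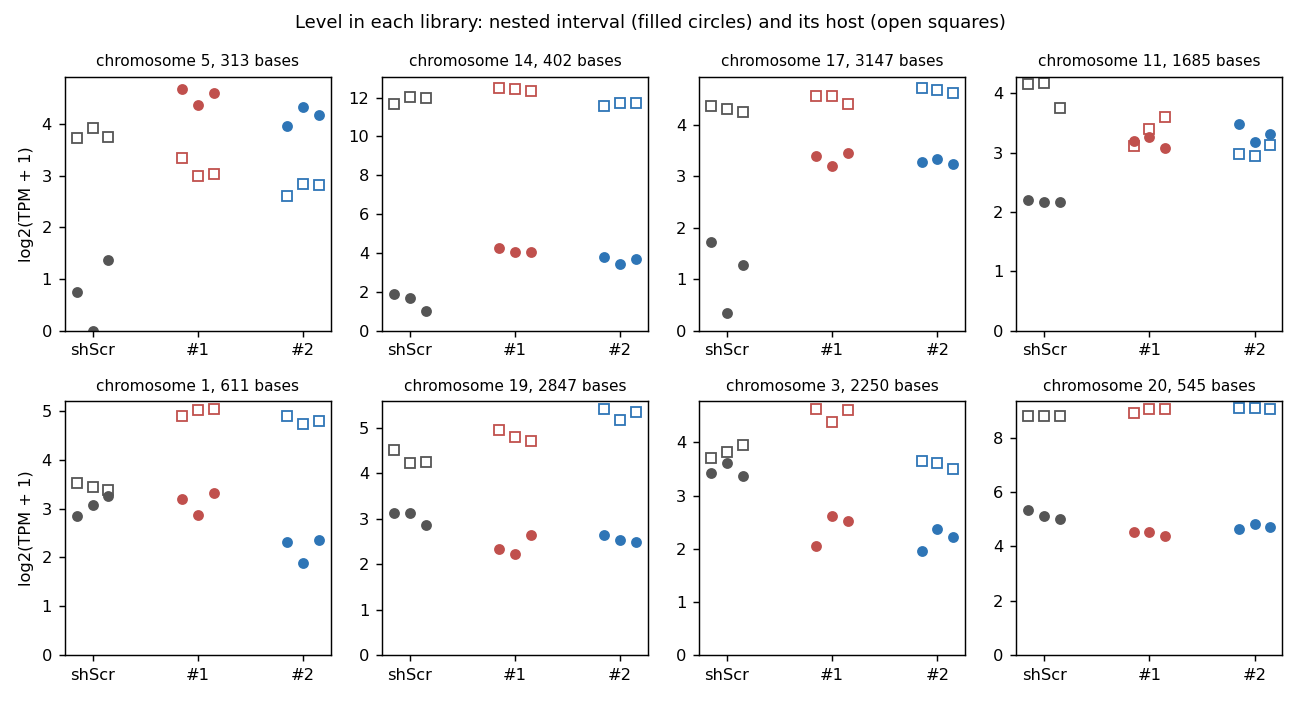
Level as log2(TPM + 1) (y axis) in each library of the 3 groups (x axis; #1 and #2 are the hairpins against CTDP1) for 8 pairs, nested interval as filled circles and host as open squares. Panel titles give the chromosome and the span of the nested interval; in the top row the nested interval rises from shScr to the hairpins, and in the bottom row it falls relative to its host.

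Other pairs moved in the same direction, which does not mean that both intervals changed equally. These were called in 1 direction in both intervals with both hairpins and were ranked by the smallest of their 4 changes. On chromosome 19, the nested interval chr19:12902310-12904124, of 1814 bases, was at 102, 103 and 108 TPM with shScr, 169.6, 193 and 184 TPM with shCTDP1-#1 and 171, 157 and 161 TPM with shCTDP1-#2. The host chr19:12873817-12983554 was at 19.8, 17.1 and 20.1 TPM with shScr, 34.5, 38.2 and 30.8 TPM with shCTDP1-#1 and 46.1, 36.0 and 38.2 TPM with shCTDP1-#2. The nested interval was above its host throughout, and both rose with no overlap with shScr. Their differences were -0.03 (SE 0.12, limma adjusted p = 0.89) with shCTDP1-#1 and -0.40 (adjusted p = 0.041) with shCTDP1-#2. The latter was not called with the replicate number as a block (limma adjusted p = 0.051) or with any 1 of 8 libraries left out.

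On chromosome 5, the nested interval chr5:151145420-151145939, of 519 bases, was faint beside its host. It was at 2.23, 0.59 and 0.28 TPM with shScr, 7.02, 2.93 and 7.09 TPM with shCTDP1-#1 and 10.2, 10.1 and 7.33 TPM with shCTDP1-#2, and the host chr5:151121877-151152093 at 287, 324 and 313 TPM with shScr, 485, 454 and 455 TPM with shCTDP1-#1 and 426, 434 and 391 TPM with shCTDP1-#2. Both rose, the nested interval from an uneven shScr level. The difference was 1.17 (SE 0.42, limma adjusted p = 0.074) with shCTDP1-#1 and 2.00 (adjusted p = 0.009) with shCTDP1-#2. Without shScr replicate 1 the former was 1.61 (limma adjusted p = 0.014) and without shCTDP1-#1 replicate 2 it was 1.49 (adjusted p = 0.038).

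On chromosome 17 the nested interval chr17:73314159-73315410 lay 2 bases from the edge of its host chr17:73314157-73401790. It was at 16.2, 18.0 and 20.6 TPM with shScr, 31.9, 34.9 and 31.6 TPM with shCTDP1-#1 and 33.1, 37.9 and 40.8 TPM with shCTDP1-#2, and the host at 108, 109 and 92.1 TPM with shScr, 134, 140.5 and 139 TPM with shCTDP1-#1 and 164, 137 and 154 TPM with shCTDP1-#2. Both rose without overlap, and the differences of 0.39 and 0.43 (SE 0.19) did not pass (limma adjusted p = 0.16 and 0.13). Without shScr replicate 3 the latter was 0.60 (limma adjusted p = 0.048).

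Among pairs in which both intervals fell, the first was on chromosome 20. The nested interval chr20:61294371-61298076, of 3705 bases, was at 23.1, 24.5 and 27.1 TPM with shScr, 10.0, 11.9 and 9.50 TPM with shCTDP1-#1 and 15.8, 18.5 and 12.9 TPM with shCTDP1-#2. The host chr20:61273797-61317137 was at 143, 153 and 154 TPM with shScr, 64.8, 64.6 and 63.0 TPM with shCTDP1-#1 and 89.8, 101 and 80.1 TPM with shCTDP1-#2. Both were lowest with shCTDP1-#1, between shScr and that level with shCTDP1-#2, and without overlap between any 2 groups in either interval. The nested interval changed by -1.18 and -0.64 and the host by -1.21 and -0.73. The differences were 0.03 and 0.09, each with an SE of 0.13 (limma adjusted p = 0.88 and 0.67).

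The pair on chromosome 17 with the nested interval chr17:45759783-45760049, of 266 bases, fell as well. It was at 151, 126 and 149 TPM with shScr, 88.7, 90.8 and 107 TPM with shCTDP1-#1 and 83.4, 106 and 82.2 TPM with shCTDP1-#2, and the host chr17:45726842-45762871 at 540.0, 491 and 477 TPM with shScr, 307, 294 and 338 TPM with shCTDP1-#1 and 367, 353 and 379 TPM with shCTDP1-#2. Both were below every shScr library in every knockdown library, with changes of -0.57 and -0.65 in the nested interval and -0.68 and -0.46 in the host. On chromosome 14 the nested interval chr14:105235686-105236608 shared an edge with its host chr14:105235686-105262088. It was at 52.6, 45.6 and 51.0 TPM with shScr, 28.8, 39.8 and 36.2 TPM with shCTDP1-#1 and 38.0, 29.5 and 34.9 TPM with shCTDP1-#2, and the host at 133, 131 and 134 TPM with shScr, 103, 104 and 113 TPM with shCTDP1-#1 and 96.2, 92.8 and 88.3 TPM with shCTDP1-#2. Both fell, by 0.51 and 0.53 on the log2 scale in the nested interval and by 0.32 and 0.52 in the host, and the groups did not overlap between shScr and the hairpins.

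The pair difference varied most between the hairpins, in either direction, in a pair on chromosome 10 and a pair on chromosome 1. The nested interval chr10:93565803-93567253, of 1450 bases, was at 99.8, 112 and 53.4 TPM with shScr, 10.1, 37.1 and 23.2 TPM with shCTDP1-#1 and 73.9, 121 and 68.2 TPM with shCTDP1-#2. Its host chr10:93558069-93625033 was at 28.2, 27.5 and 25.7 TPM with shScr, 37.2, 37.0 and 38.2 TPM with shCTDP1-#1 and 39.1, 37.6 and 37.9 TPM with shCTDP1-#2. The nested interval was low with shCTDP1-#1 alone, with a wide spread in every group, whereas the host rose with both, by 0.45 and 0.48 on the log2 scale. The difference between the hairpins was 1.96 (SE 0.47, limma adjusted p = 0.028). Leaving out either shCTDP1-#1 replicate 1 or 3, or any shCTDP1-#2 library, brought the limma adjusted p to between 0.056 and 0.092.

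The nested interval chr1:78276507-78277621 on chromosome 1, of 1114 bases, was at 4.85, 4.24 and 7.30 TPM with shScr, 7.48, 5.62 and 6.34 TPM with shCTDP1-#1 and 4.24, 4.55 and 4.48 TPM with shCTDP1-#2. Its host chr1:78245309-78344106 was at 14.9, 15.3 and 13.9 TPM with shScr, 5.53, 4.95 and 7.52 TPM with shCTDP1-#1 and 19.9, 19.6 and 18.7 TPM with shCTDP1-#2. Here the host carried most of the contrast: it fell with shCTDP1-#1 and rose with shCTDP1-#2 without overlap, while the nested interval overlapped shScr in both. Between the hairpins the nested interval was lower with shCTDP1-#2, without overlap, at -0.46 on the log2 scale (limma adjusted p = 0.041). That call was lost when any shCTDP1-#2 library was left out. The difference between the hairpins was -2.01 (SE 0.23, limma adjusted p = 0.0017).

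Nested intervals of 1 host did not always move alike. At most 4 nested intervals of a host were tested, in 3 hosts, and the first 2 of these in order of name are described. The host chr14:104028233-104167888 was at 113 ± 9.5 TPM (SD, n = 3) with shScr, 149 ± 2.4 with shCTDP1-#1 and 152 ± 11 with shCTDP1-#2. It rose by 0.40 and 0.43 on the log2 scale (limma adjusted p = 0.0004 and 0.00023). Its nested intervals chr14:104160853-104161387 and chr14:104160897-104161507, which overlap each other, were at 9.49 ± 1.1 and 13.1 ± 0.41 TPM with shScr, 4.82 ± 1.8 and 8.40 ± 3.9 with shCTDP1-#1, and 12.7 ± 2.3 and 12.9 ± 1.4 with shCTDP1-#2. The nearby chr14:104162690-104163500 went from 14.0 ± 1.3 to 9.78 ± 0.36 and 18.3 ± 0.42 TPM. With shCTDP1-#1 these 3 fell, with log2 changes of -0.89, -0.67 and -0.48 (limma adjusted p = 0.0028, 0.025 and 0.00032), as the host rose. With shCTDP1-#2 their changes were 0.38, -0.03 and 0.36 (limma adjusted p = 0.12, 0.91 and 0.0019). The remaining one, chr14:104153913-104154464, was at 0.753 ± 0.68, 1.06 ± 0.71 and 2.18 ± 0.98 TPM and passed with neither hairpin.

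The other host, chr17:6888813-6922733, was itself near 0, at 0.08 ± 0.14 TPM (SD, n = 3) with shScr, 0.58 ± 0.55 with shCTDP1-#1 and 0.19 ± 0.33 with shCTDP1-#2. The values that follow are in the order shScr, shCTDP1-#1, shCTDP1-#2. Within it, chr17:6915736-6917851 stood at 322 ± 21, 403 ± 16 and 408 ± 12 TPM and rose by 0.32 and 0.34 on the log2 scale (limma adjusted p = 0.00024 and 0.00017). The neighbouring chr17:6917814-6920844, which overlaps its end, stood at 94.5 ± 5.6, 62.9 ± 8.3 and 58.8 ± 2.3 TPM and fell by 0.59 and 0.67 (limma adjusted p = 0.00017 and 6.6e-05). A longer interval across both, chr17:6915954-6920839, was at 0.757 ± 0.67, 2.04 ± 0.54 and 1.55 ± 0.29 TPM. The last, chr17:6897961-6898508, was listed at 0 in every shScr library and at 0.643 ± 0.04 and 3.10 ± 1.7 TPM with the hairpins. Abundant nested intervals thus lay in a host near 0, and the 2 that overlap at 1 end moved in opposite directions.

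The most abundant nested intervals were unlike their hosts in level. The interval chr2:85132749-85133795, of 1046 bases, was at 3374, 3678 and 3737 TPM with shScr, 4212, 4207 and 3997 TPM with shCTDP1-#1 and 4124, 4373 and 4269 TPM with shCTDP1-#2. Its host chr2:85048774-85134132 was at 21.9, 23.6 and 25.1 TPM with shScr, 25.4, 25.2 and 26.1 TPM with shCTDP1-#1 and 19.9, 20.6 and 23.4 TPM with shCTDP1-#2. The nested interval rose by 0.20 and 0.24 on the log2 scale (limma adjusted p = 0.0016 and 0.0005), a change that did not pass after median-of-ratios scaling (adjusted p = 0.069 and 0.16). The host passed with neither hairpin, with changes of 0.12 and -0.14 (limma adjusted p = 0.2 and 0.14).

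The interval chr12:49521565-49525180, which shares an edge with its host chr12:49521565-49541652, was at 2532, 2713 and 2609 TPM with shScr, 1935, 1860 and 1903 TPM with shCTDP1-#1 and 1588, 1463 and 1551 TPM with shCTDP1-#2. The host was at 0.36, 0 and 0.76 TPM with shScr, 1.36, 0 and 1.94 TPM with shCTDP1-#1 and 0.44, 1.68 and 0.75 TPM with shCTDP1-#2. The nested interval fell with both hairpins, by 0.46 and 0.77 on the log2 scale (limma adjusted p = 2.1e-06 and 6.0e-08), with no overlap between any 2 groups. The host, listed at 0 in 1 shScr and 1 shCTDP1-#1 library, passed with neither.

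Abundant nested intervals also lay in hosts under 0.1 TPM on average. The interval chr6:74082831-74082986, of only 155 bases, was at 1605, 1398 and 1369 TPM with shScr, 1728, 1815 and 1865 TPM with shCTDP1-#1 and 1762, 1021 and 1140 TPM with shCTDP1-#2, in a host, chr6:74078278-74104856, that was listed at 0 in 7 of the 9 libraries. It passed with neither hairpin, with changes of 0.31 and -0.19 (limma adjusted p = 0.18 and 0.4). Without shCTDP1-#2 replicate 1, the highest of its group, the changes were 0.31 and -0.43 (limma adjusted p = 0.0022 and 0.0007). The interval chr3:161146915-161147398, of 483 bases, was at 1438, 1637 and 1623 TPM with shScr, 1647, 1658 and 1551 TPM with shCTDP1-#1 and 1344, 1466 and 1304 TPM with shCTDP1-#2, in the host chr3:161144215-161166030, listed at 0 in 7 of the 9 libraries. With shCTDP1-#1 it changed by 0.05 (limma adjusted p = 0.48), and with shCTDP1-#2 it was lower by 0.19 (adjusted p = 0.015). That call was lost without shScr replicate 2 or 3 or shCTDP1-#2 replicate 3 (limma adjusted p = 0.056, 0.055 and 0.06).

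The shortest nested intervals were on or off from library to library. Of the 43 tested ones under 300 bases, 34 were listed at 0 in at least 1 library, against 81 of 269 from 300 to under 1000 bases and 37 of 293 from 1000 to under 5000 bases. Their median SE of a log2 change was 0.57, against 0.25 and 0.17, and 7 of the 43 were called with at least 1 hairpin, against 132 of 269 and 186 of 293. These are 16.3%, 49.1% and 63.5%, beside 78.9% of all 15011 tested intervals. The 3 examples that follow were chosen after their values were seen. The shortest, chr12:65090189-65090329 with 140 bases, was at 0, 9.81 and 34.5 TPM with shScr, 0, 62.6 and 0 TPM with shCTDP1-#1 and 0, 0 and 0 TPM with shCTDP1-#2. It was listed at 0 in 6 of the 9 libraries and highest in 1 shCTDP1-#1 library, and it passed with neither hairpin (limma adjusted p = 0.73 and 0.25).

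The interval chr4:89442724-89442940, of 216 bases, was at 19.9, 26.0 and 36.7 TPM with shScr, 0, 0 and 0 TPM with shCTDP1-#1 and 0, 0 and 26.4 TPM with shCTDP1-#2. It was listed at 0 in 5 of the 6 knockdown libraries and in none of the shScr libraries, and shCTDP1-#2 replicate 3 stood with shScr. It met the 1 TPM limit through the shScr libraries and was picked for its values, so no test is given for it. Its host chr4:89442199-89629693, between 84.5 and 143 TPM, did not pass with either hairpin (limma adjusted p = 0.55 and 0.59).

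The interval chr1:101360484-101360912, of 428 bases, was listed at 0 in all 6 libraries of shScr and shCTDP1-#1 and was at 10.2, 7.82 and 6.20 TPM in the shCTDP1-#2 libraries. It met the detection rule and the limit of 1 TPM only through the shCTDP1-#2 libraries, so no test and no fold are given. The host chr1:101337943-101361554 was at 30.3, 32.9 and 32.1 TPM with shScr, 38.8, 37.6 and 40.7 TPM with shCTDP1-#1 and 41.7, 44.2 and 45.1 TPM with shCTDP1-#2. It rose by 0.29 and 0.45 on the log2 scale (limma adjusted p = 0.001 and 4.9e-05). The host was thus listed in all libraries while the nested interval was above 0 with 1 hairpin alone.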

How the data were processed

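The tools named are STAR and RSEM and the build is hg19, per the submitters' processing notes. Their versions, settings and annotation are not given in the sources used here. Each library has a table of 57773 intervals. The authors deposited no unit with them, and they are taken as TPM, an RSEM output, since every table adds up to the total that TPM has by definition. The 2246 rows whose coordinates recur, at 240 positions (64 of which meet the geometry of the rule), were left out.

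Nested intervals were tested within limma 3.58.1 in R 4.3.3 (statmod 1.5.0; trend and robust options) on log2(TPM + 1), over the 15011 intervals that reached 1 TPM in 3 or more libraries, in 1 fit of 3 group means to 9 libraries with 6 residual degrees of freedom. Pair differences were fitted likewise over 1049 pairs. Fold changes on this scale understate those of low intervals. The printed pairs were chosen by rank within fixed classes. The classes were shifted apart, moved in the same direction, opposite, different between hairpins, most abundant, host near 0 and hosts with most tested members. The intervals, lists and tests were chosen with earlier results of these data known.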

Additional observations from a re-analysis of the deposited data

Results flagged for a closer look

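Each result here differed from hairpin to hairpin by limma's test of shCTDP1-#2 against shCTDP1-#1 (adjusted p under 0.05). Over pairs, 33 differed towards the nested interval and 21 towards the host. Without shCTDP1-#2 replicate 1 or 2 the first count was 20 or 21, and without shCTDP1-#1 replicate 1 the second was 13.

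Of the pairs named above, the log2 difference between the hairpins, nested minus host, was 1.96 on chromosome 10 (chr10:93565803-93567253), -2.01 for chr1:78276507-78277621 and -0.76 for chr1:109534878-109535489. The last had a limma adjusted p of 0.04, which rose to between 0.058 and 0.12 without any 1 of 6 libraries.

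Nested intervals differed between the hairpins by 1.98 on chromosome 10, and by -0.46 (chr1:78276507-78277621) and -0.94 (chr1:109534878-109535489) on chromosome 1. The differences were -0.16 for chr19:12902310-12904124, 0.54 for chr20:61294371-61298076, 0.25 for chr20:30135307-30135852, -0.31 for chr12:49521565-49525180 and -0.24 for chr3:161146915-161147398. Those of chr20:30135307-30135852, chr19:12902310-12904124 and chr1:78276507-78277621 were not called under 9, 5 and 7 of the alternatives. In the host on chromosome 14 with several tested members, 3 nested intervals differed by 1.27, 0.64 and 0.84, and in that on chromosome 17 chr17:6897961-6898508 differed by 1.23. That interval reached 1 TPM only in the shCTDP1-#2 libraries, so its value is a description. The interval chr1:101360484-101360912, listed at 0 outside the shCTDP1-#2 libraries, had a fitted difference of 3.16, which depends on the pseudocount. It met the detection rule and the 1 TPM limit only through those libraries, so the value supports nothing.

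Hosts differed by 1.56 (chr1:78245309-78344106), -0.96 (chr3:183967438-184010819), -0.74 (chr14:50043390-50065408), -0.57 (chr12:65004293-65091347) and 0.50 (chr19:53097313-53193749). Smaller differences were 0.48 (chr20:61273797-61317137), -0.36 (chr5:148303202-148442726), -0.25 (chr2:85048774-85134132), 0.23 (chr17:45726842-45762871), -0.21 (chr14:105235686-105262088), -0.16 (chr5:151121877-151152093) and 0.16 (chr1:101337943-101361554).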

How the results depend on the processing

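Counts are given as nested intervals (or pairs) higher and lower. With no filter beyond detection, pairs numbered 194 and 212 with shCTDP1-#1, 205 and 201 with shCTDP1-#2 and 105 and 98 between the hairpins, of 1563. The share of all nested pairs called is not given under this or another changed filter or host limit. Pair counts in those settings are therefore no result about the nested intervals. Of 1718 nested intervals, 225 were higher with shCTDP1-#1. The share of nested intervals called in either direction was 20.1%, 20.3% and 12.5% in the 3 comparisons. Over all 23174 intervals it was 44.4%, 44.2% and 33.2%. With 5 TPM in 3 libraries, pairs numbered 26 and 23, and 35 and 23, of 142, with the hairpins; nested intervals 66 and 56 with shCTDP1-#1, 75 higher with shCTDP1-#2 and 56 higher between the hairpins, of 241. The share called was then 50.6%, 53.5% and 40.2% in the 3 comparisons, against 39.5%, 41.2% and 26.3% at 1 TPM, beside 70.5%, 71.2% and 60.2% of all 11437 intervals at 5 TPM. With hosts of 50000 bases or more, nested intervals numbered 91 and 58, 104 and 49, and 64 and 38 in the 3 comparisons, of 382. Pairs numbered 47 higher with shCTDP1-#2 and 11 lower between the hairpins, of 299. The limits for a call were unchanged, with 63.1%, 64.0% and 50.2% of all 15011 tested intervals called. With nested spans under 2500 bases, 38 of 486 nested intervals were lower between the hairpins. In these last 2 settings fewer intervals are counted. Chosen after seeing the data, the 91 pairs within 1000 bases of an edge gave 5 and 7, 9 and 5, and 4 and 1. The 121 pairs with both means at 5 TPM or more gave 19 and 21, 23 and 18, and 13 and 9. Both sets are from the main fit, in which 29.6%, 29.4% and 14.7% of all 1049 pairs were called.

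The r of nested and host change with shCTDP1-#1 (0.096) was 0.148 as Spearman's rho, 0.074 with a pseudocount of 0.1 TPM, 0.122 with 5 TPM in 3 libraries, 0.046 with hosts of 50000 bases or more, 0.116 with the largest host, 0.030 at least 1000 bases inside and 0.360 near an edge. With shCTDP1-#2 (0.10) it was 0.161 as rho, 0.121 with spans under 2500 bases, 0.060 inside and 0.272 near an edge. The cause of these shifts was not tested. Scaling, limma without trend and robust options and 1 nested interval per host left every count within 1.5 times its main value.

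With 1 library left out at a time there were 120 to 152 and 70 to 95 nested intervals with shCTDP1-#1, 143 to 171 and 64 to 81 with shCTDP1-#2, and 73 to 99 and 49 to 64 between the hairpins. Pairs ran from 52 to 61 and 45 to 62, 52 to 74 and 35 to 42, and 20 to 33 and 13 to 20, and r from 0.074 to 0.123 and 0.071 to 0.120. For the named intervals and pairs, 57 of the values under an alternative lost the call and 22 gained it. None that was called, in the main setting or the alternative, turned in direction. Turns between values not called in either were not counted.

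Replicate numbers recur in each group and were not treated as pairs in the main fit. Between groups, residuals of same-numbered libraries correlated at -0.0066 to 0.0535. Those of differently numbered libraries correlated at -0.0465 to 0.0239, and the difference was not tested. With the replicate block, nested intervals numbered 157 and 94, 172 and 79, and 98 and 64, and pairs 62 and 61, 66 and 45, and 30 and 15. Called both with and without it were 112, 105 and 43 pairs. The shares of all intervals and of all nested pairs called are not given for this fit or with a library left out. These counts therefore show only how far they move with the fit and are no result about the nested intervals.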
